A study of Homo sapiens with 20 samples.

Results

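Contacts between captured fragments on the same chromosome were compared between days 3 and 5 and days 7 and 10 of the passage of human pluripotent stem cells from the naive to the primed state. Poised Enhancer Capture Hi-C (PECHi-C) enriches proximity-ligation products that carry a DpnII restriction fragment with a poised enhancer at an end, and such a captured fragment is called a bait. HNES1, a human embryonic stem cell line held in a naive state with PD0325901, LIF, Gö6983 and XAV939 on mouse feeder cells, was moved to N2B27 medium with XAV939 and taken after 3, 5, 7 and 10 days. The libraries compared were 8 of 20, 2 at each of these 4 days, and the deposited matrix held 1 score column for each of 10 conditions, so 4 of 10 columns entered the comparison. All 4 columns came from the same line in the same transition medium and differed in the labels by day alone. The other columns were naive cells, day 1, day 14 (when the primed state is reached according to the labels), the primed line H9, and definitive endoderm (DE) and neuroectoderm (NE) made from day 14 cells. With the libraries of a day pooled in its column, replicates cannot be set against each other and no test between days is possible, and every difference below is a description of 4 pooled columns. The words fell and rose stand here for fewer and more contacts in the counts, without a test. Contact scores hold no RNA measurement, so the labelled cell state was not checked against marker genes, and read depth per library was unknown.

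Poised enhancers are regulatory elements of developmental genes that are accessible but held inactive in pluripotent cells, often under the Polycomb mark H3K27me3. Polycomb-bound regions can meet one another over long distances, HOX clusters and other homeobox genes being the best known examples, and in this assay such meetings appear as contacts that have a bait at both ends. A contact between baits therefore joins a pair of designed regulatory fragments, whereas the other contacts join a bait to a fragment outside the design.

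The matrix listed 766138 contacts, of which 182303 lay within a chromosome and 2396 of those joined a pair of baits. Some pairs were listed from each end, so the 2396 listings stood for 1847 distinct bait pairs. The value of a contact was its CHiCAGO interaction score, in which a higher value means that a read count stands further above that expected at the distance. Scores of at least 5 counted as called. Called contacts within chromosomes numbered 22673, 21342, 18651 and 18752 at days 3, 5, 7 and 10. To take this difference in total out of the comparison, the 18651 top-scoring contacts of each column were kept, the number called at day 7. The lowest scores kept were 5.20, 5.14, 5.00 and 5.01 in the same order. In the other columns they were 4.89 in naive cells, 4.91 at day 1, 5.10 at day 14, 5.26 in H9 cells, 5.52 in DE and 5.67 in NE. Kept contacts of naive and day 1 cells thus include some below the called threshold, and counts across these columns stand at unlike scores.

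Among equal numbers of contacts, day 3 had 201 bait pairs, day 5 had 193, day 7 had 157 and day 10 had 140. Both earlier days lay above both later days. The mean fell from 197.0 to 148.5 pairs, by 48.5 pairs or 24.6%. Counted as listings, bait-to-bait contacts made up 1.34% of kept contacts at day 3 (95% Wilson interval 1.19 to 1.52) and 1.28% at day 5 (1.13 to 1.45), against 1.09% at day 7 (0.954 to 1.25) and 1.01% at day 10 (0.879 to 1.17). The intervals cover counting error only. Those of days 3 and 7, of days 5 and 7 and of days 5 and 10 overlapped, and those of days 3 and 10 did not. Some pairs are listed from each end and some share a bait, so listings are not independent, and the intervals do not allow for this. With the days put together the share was 1.31% at days 3 and 5 and 1.05% at days 7 and 10, a difference of 0.257 percentage points. Naive cells and day 1 cells had 104 and 105 pairs, day 14 cells had 228 and H9 cells 257, so days 7 and 10 lay between the naive count and that of every other pluripotent column from day 3 on.

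**Figure D1:**
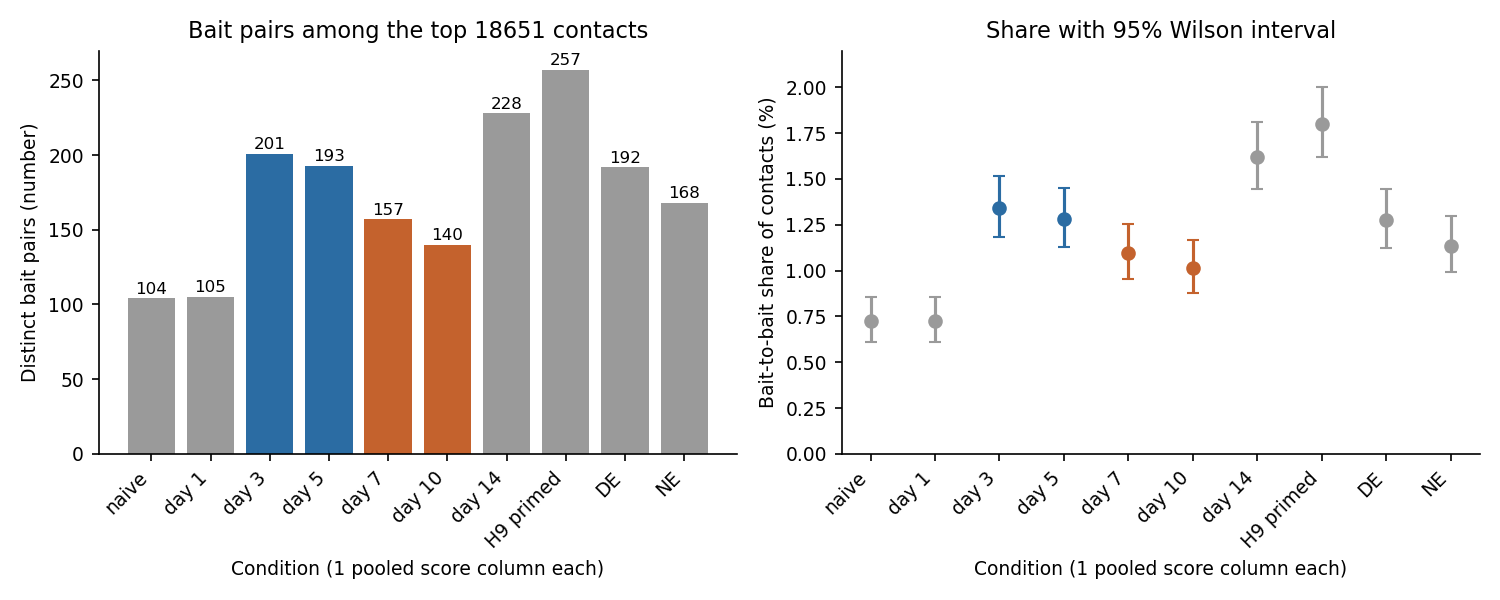
Left, distinct bait pairs among the 18651 top-scoring contacts within chromosomes in each condition; right, bait-to-bait listings as a percent of those contacts with 95% Wilson intervals (counting error only). Blue marks days 3 and 5 (201 and 193 pairs), orange days 7 and 10 (157 and 140 pairs), and grey the other 6 conditions.

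The promoter windows of 3 genes named below are shown first, to place baits on the genome, although most of the pairs did not meet at a promoter. OTP, which codes for a homeobox factor of hypothalamic neurons, gave its name to the locus with the largest fall. CDX2, a homeobox factor of trophectoderm and hindgut, was the listed gene with the largest fall. SKAP2, which codes for a Src kinase adaptor protein and lies beside the HOXA cluster, had the promoter with the most bait pairs. Each sequence is the RefSeq promoter window on GRCh38.p14, from 250 bases before to 50 bases after the annotated start, read 5′ to 3′ on the strand of the gene, with DpnII sites (GATC, which reads the same on both strands) in capitals.
OTP promoter, chr5:77638664-77638963, minus strand: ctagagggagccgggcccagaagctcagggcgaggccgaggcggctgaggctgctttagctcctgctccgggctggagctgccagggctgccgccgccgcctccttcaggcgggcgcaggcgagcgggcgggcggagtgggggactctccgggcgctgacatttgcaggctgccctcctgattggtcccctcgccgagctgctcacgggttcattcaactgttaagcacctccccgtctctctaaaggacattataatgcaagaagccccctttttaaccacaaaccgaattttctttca
CDX2 promoter, chr13:27969266-27969565, minus strand: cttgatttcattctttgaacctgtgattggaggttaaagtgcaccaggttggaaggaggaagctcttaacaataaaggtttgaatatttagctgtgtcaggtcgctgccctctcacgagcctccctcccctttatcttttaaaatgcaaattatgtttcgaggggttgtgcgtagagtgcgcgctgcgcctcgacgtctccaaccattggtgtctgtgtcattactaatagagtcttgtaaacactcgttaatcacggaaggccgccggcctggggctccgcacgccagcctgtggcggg
SKAP2 promoter, chr7:26857674-26857973, minus strand: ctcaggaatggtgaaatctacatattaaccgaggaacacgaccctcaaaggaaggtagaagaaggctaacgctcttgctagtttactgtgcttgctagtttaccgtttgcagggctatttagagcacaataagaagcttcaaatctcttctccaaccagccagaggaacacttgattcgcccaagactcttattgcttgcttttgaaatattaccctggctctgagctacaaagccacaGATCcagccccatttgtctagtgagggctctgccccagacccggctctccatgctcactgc
OTP and CDX2 had no DpnII site in the window, and SKAP2 had 1, at which an edge between neighbouring baits lies. Of 15482 protein-coding promoter windows, 39.6% held the letters GATC, and of the 35 windows that lay at baits of the kept pairs, 37.1% did. CpG dinucleotides numbered 21 in the OTP window, 16 in that of CDX2 and 6 in that of SKAP2, with a median of 23 over the 35 windows and 22 over all windows. Baits at the OTP window had 1, 1, 0 and 1 kept pairs at days 3, 5, 7 and 10. At the CDX2 window these counts were 2, 1, 0 and 0, and at the SKAP2 window 4, 4, 4 and 0. Only 35 of the 999 baits with a kept pair lay at such a window, so most pairs joined fragments away from annotated starts.

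Few contacts of any kind stayed from day to day. In the 4 columns together 646 distinct pairs of 999 baits were kept, and 612 of them (94.7%) were kept at a single day. Counted as listings this share was 95.3% of 827 bait-to-bait contacts, and it was 92.4% of the 67323 other contacts, so most of the turnover was common to both kinds. Of the 201 pairs of day 3 and the 193 of day 5, 12 were shared (5.97% and 6.22%), and 9 pairs were shared by days 7 and 10 (5.73% of day 7 and 6.43% of day 10). Sharing across the divide was of the same order, with 8 to 11 pairs for each earlier and later day. The fall was thus the balance of 358 pairs kept at days 3 or 5 only and 264 kept at days 7 or 10 only, while 24 pairs were kept on both sides. No more than 6 pairs were kept at both day 3 and day 5 and at neither later day, and 4 showed the opposite pattern. Of all 68150 contacts kept in any of the 4 columns, 47.2% were kept at days 3 or 5 only and 47.4% at days 7 or 10 only. For bait-to-bait listings these shares were 53.9% (446 of 827, interval 50.5 to 57.3) and 42.8% (354 of 827, 39.5 to 46.2), against 47.1% (46.7 to 47.5) and 47.4% (47.1 to 47.8) for the other contacts. On both sides 3.26% of bait-to-bait listings (2.25 to 4.71) and 5.46% of other contacts (5.29 to 5.64) were kept. Listings that share a bait are not independent, and these intervals do not allow for it.

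The pairs that were kept early mostly dropped far below the threshold rather than just under it. Of the 358 pairs kept at days 3 or 5 only, 172 (48.0%) had a score of 0 at both later days, 134 reached more than 0 and less than 3, 51 reached 3 to 5, and 1 reached 5.00 on a later day without being among the kept contacts. Their higher early score had a median of 5.82 and a maximum of 13.99, and their higher late score a median of 0.841. The 264 late pairs looked alike in reverse, with 110 (41.7%) at 0 at both earlier days, a median late score of 5.69 and a median early score of 1.12. Most members of either class thus stood just above the threshold on 1 day. Of the 358 early pairs 21 (5.87%) were kept again at day 14, 17 in H9 cells and 4 in naive cells. Of the 264 late pairs 9 (3.41%) were kept at day 14 and 10 in H9 cells. Most of the 228 pairs of day 14 were thus other pairs than those of days 3 and 5. This is not particular to day 14, since only 5.97% of the pairs of day 3 were shared with day 5. The 24 pairs kept on both sides are not in these counts.

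**Figure D2:**
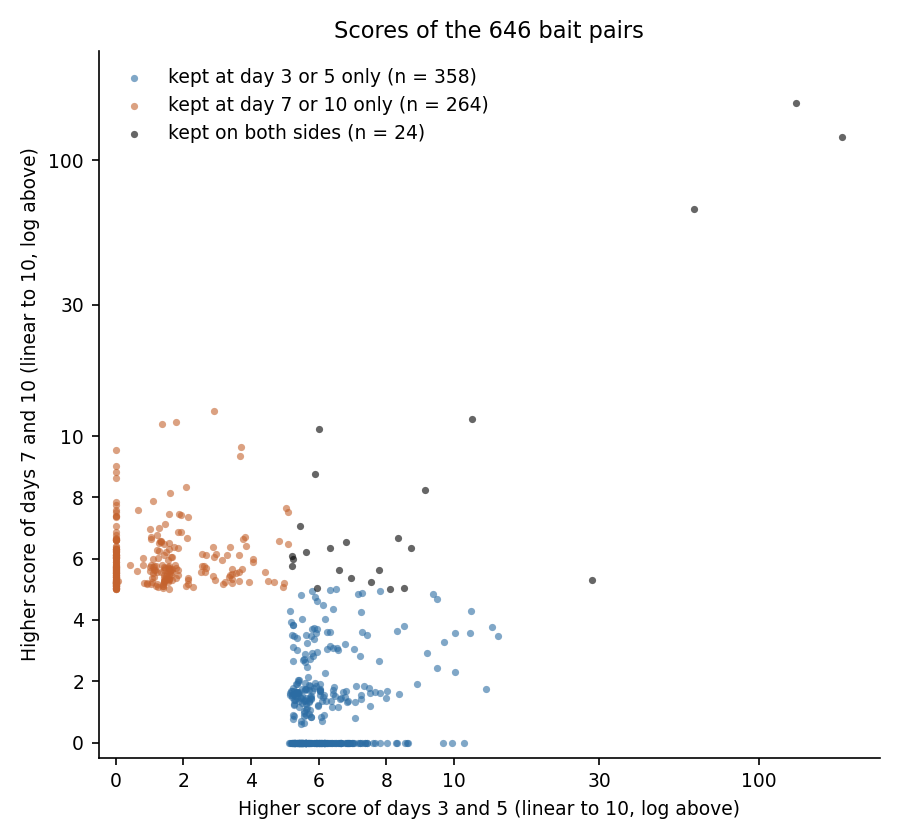
Each point is 1 of 646 bait pairs; the axes give its higher score at days 3 and 5 (horizontal) and at days 7 and 10 (vertical), linear to 10 and logarithmic above. Blue points were kept at days 3 or 5 only (358), orange at days 7 or 10 only (264) and black on both sides (24), and the early and late classes lie in bands close to the threshold, many at 0 on the other axis.

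The other contacts of the same baits moved less. At the 999 baits, 1606, 1634, 1455 and 1452 contacts with fragments outside the design were kept at days 3, 5, 7 and 10, a mean of 1620.0 against 1453.5, or 10.3% fewer at the later days. At all other baits the means were 16786.5 and 17001.0. The 999 baits were chosen for having a kept bait pair on any of the 4 days, a choice that takes in more early pairs than late ones. Over the whole listing, 45.5%, 43.0%, 37.6% and 36.9% of the 2396 bait-to-bait listings had a score above 0 at days 3, 5, 7 and 10, against 64.7%, 62.0%, 59.9% and 59.9% of the other listed contacts within chromosomes. More called contacts and more scores above 0 at days 3 and 5 move with the result, and their part in it was not tested.

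Where on the genome the pairs were lost was then followed by joining kept pairs that shared a bait or had baits within 250 kb into loci, which gave 225 loci. Pairs fell at 125 loci, rose at 84 and were level at 16. The falls added up to 102.0 pairs and the rises to 53.5. At 91 loci the fall was 0.5 pairs, which is a net loss of 1 pair over the days, at 18 loci it was 1 pair, and at 12 loci it was 2 or more. The 10 loci that fell most held 28.5 pairs, or 27.9% of all falls, and the first 3 held 13.0 pairs (12.7%), shares that follow in part from choosing the loci by their falls on these days. The other 115 falling loci held 73.5 pairs. The falls were therefore spread over many loci, most of which had a net loss of 1 pair. In 19 of 225 loci (8.44%) both early counts exceeded both late counts, and in 9 of 225 (4.00%) both late counts exceeded both early counts. Loci with 5 or more distinct pairs, 32 in number, held 128, 103, 101 and 85 pairs at days 3, 5, 7 and 10, and the other 193 loci held 73, 90, 56 and 55.

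**Figure D3:**
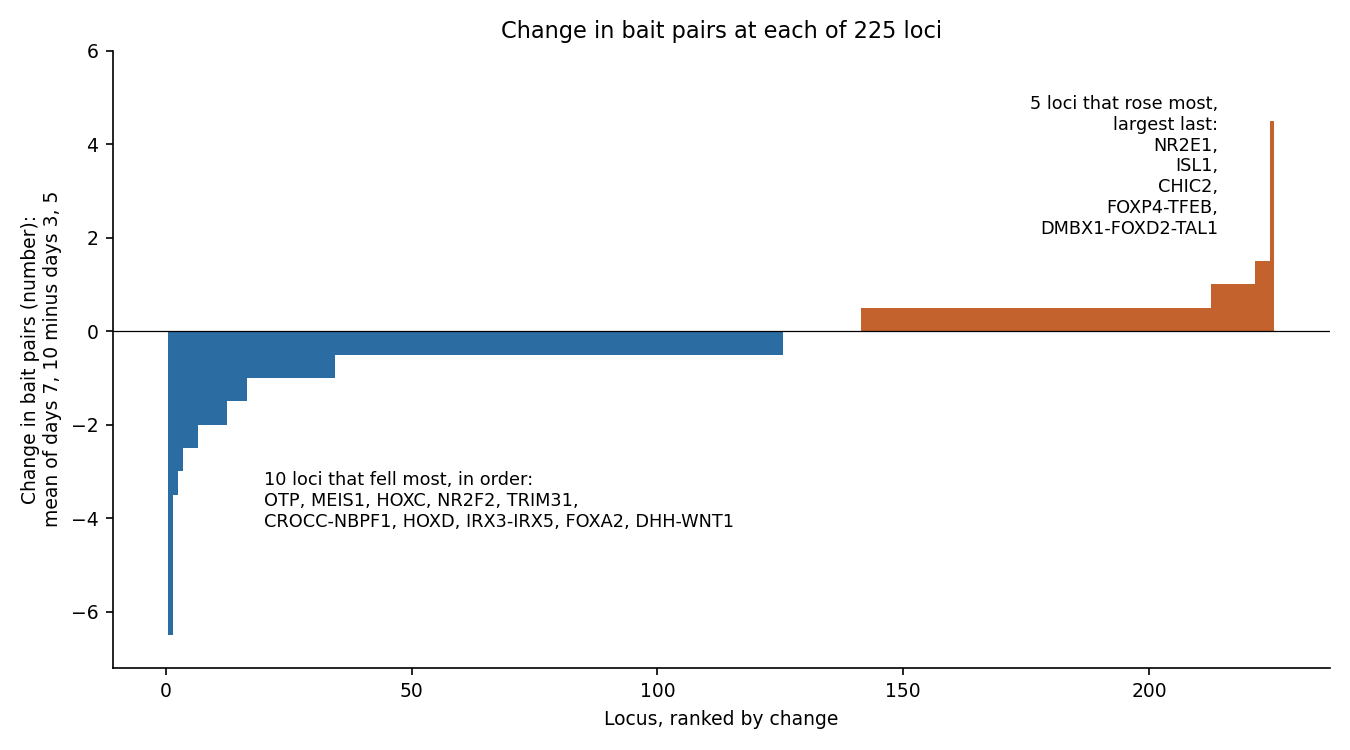
Change in kept bait pairs at each of 225 loci (mean of days 7 and 10 minus mean of days 3 and 5), ranked from the largest fall to the largest rise. Bars below 0 (blue, 125 loci) start at OTP with a fall of 6.5 pairs, 91 of them are 0.5 pairs deep, and the DMBX1-FOXD2-TAL1 locus stands at the right end with a rise of 4.5 pairs.

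The locus around OTP on chromosome 5 (chr5:77627237-77995597, 29 baits) lost the most pairs. It had 20, 11, 14 and 4 pairs at days 3, 5, 7 and 10. Day 7 stood above day 5, so the early and late counts overlapped, and the fall of 6.5 pairs (6.37% of all falls) rested on the high count of day 3 and the low count of day 10. Without day 3 the fall was 2.0 pairs and without day 10 it was 1.5, while without day 5 or day 7 it was 11.0 or 11.5. The baits formed 3 groups, namely 14 over and beside OTP itself (chr5:77627237-77646195), 10 that lie 194.5 to 212.9 kb upstream of its start (chr5:77833219-77851647) and 5 that lie 320.1 to 356.9 kb upstream (chr5:77958785-77995597). Pairs between the group at OTP and the nearer upstream group numbered 8 in naive cells and 6, 16, 11, 12, 4 and 16 at days 1, 3, 5, 7, 10 and 14, with 12 in H9 cells and 1 each in DE and NE. Pairs between the group at OTP and the farther group numbered 4, 0, 1 and 0 on the 4 compared days. The same 2 regions thus had kept pairs at every time point of the transition. Of the 41 distinct pairs of the locus, 34 (82.9%) were kept on 1 of the 4 compared days, 6 on 2 days and 1 on 3 days, against 94.7% on a single day over all bait pairs.

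The largest loss of score within the OTP locus was between the fragments chr5:77642938-77643598 and chr5:77845896-77847132, which are 203 kb apart. Their scores at days 3, 5, 7 and 10 were 13.99, 4.77, 1.45 and 3.46, with 8.94 in naive cells and 7.74 at day 14. The neighbouring fragment chr5:77643638-77645111 scored 6.43, 9.50, 1.30 and 2.44 with the same upstream bait. The bait chr5:77635685-77636727 inside OTP scored 6.42 at day 3 and 5.37 at day 5 with chr5:77847302-77847991, then 0 at day 7 and 1.59 at day 10. These 3 pairs were picked for their loss of score, and the first was kept at day 3 alone. Other pairs between the same 2 groups of baits went the other way. The bait chr5:77635685-77636727 scored 2.90, 0, 12.3 and 0 with chr5:77847992-77848889. The bait chr5:77629266-77629741 scored 1.38, 0, 11.1 and 0 with chr5:77847302-77847991. Contacts of the locus's baits with fragments outside the design numbered 96, 78, 67 and 70 on the 4 days, so they too were fewer on the later days.

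**Figure D4:**
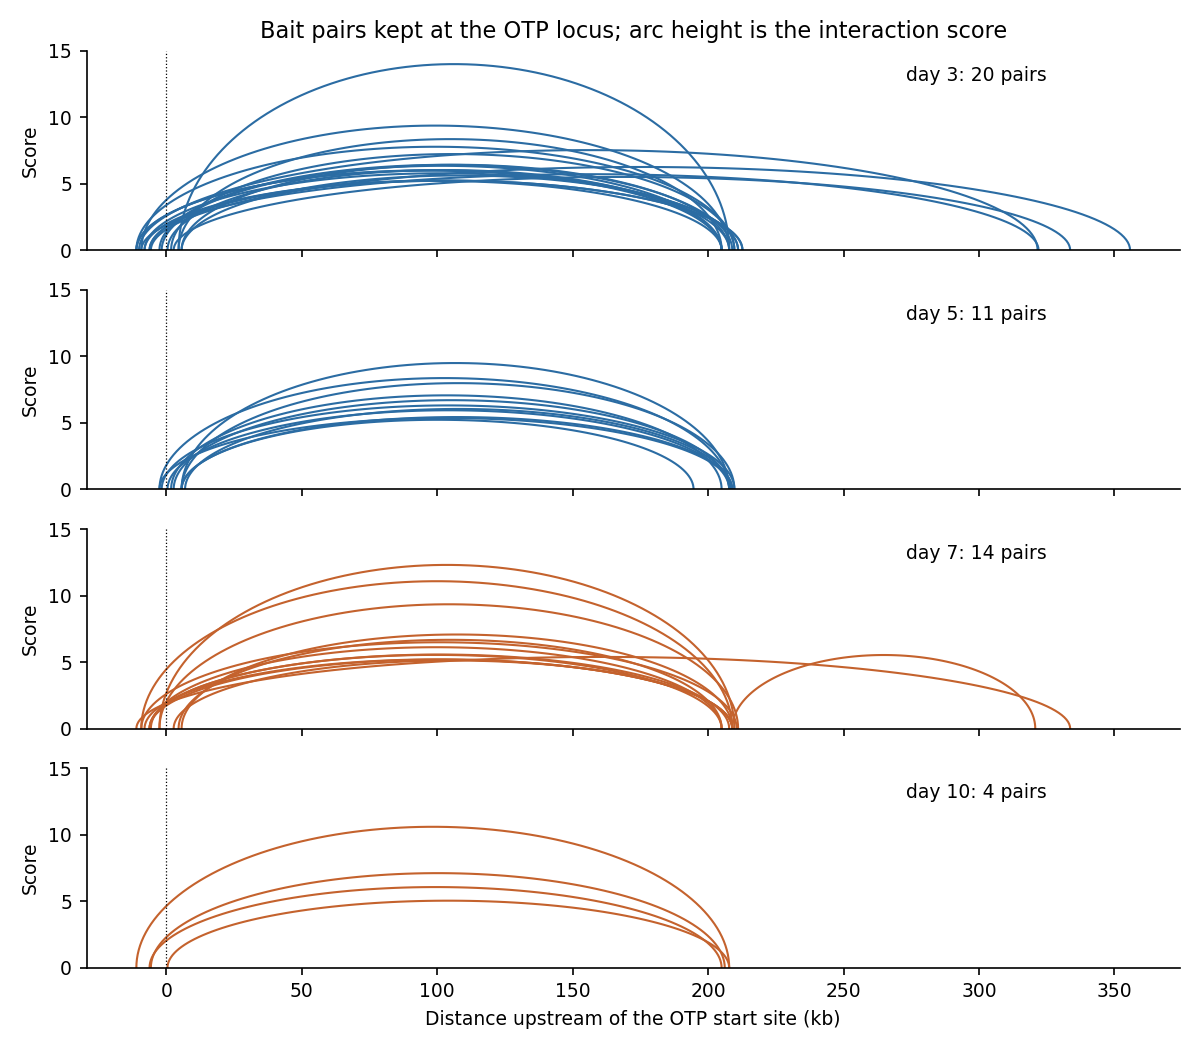
Bait pairs kept at the OTP locus at days 3, 5, 7 and 10 (20, 11, 14 and 4 pairs). Each arc joins the middle points of 2 baits, the horizontal axis is the distance upstream of the OTP start site in kb, and the height of an arc is the interaction score of the pair. Most arcs run from the gene to the group of baits about 200 kb upstream, and day 10 has the fewest.

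MEIS1, a homeobox cofactor of HOX proteins on chromosome 2, gave its name to the locus with the next largest fall. Pairs with a bait at MEIS1 itself were fewer, and their early and late counts, given at the end, overlapped. Its locus (chr2:66430924-66583487, 14 baits) held 8, 4, 4 and 1 pairs at days 3, 5, 7 and 10, a fall of 3.5 pairs with day 5 level with day 7. The fall was 1.5 pairs without day 3, 2.0 without day 10 and 5.5 without day 5. All pairs joined a group of 8 baits around the start of the gene (chr2:66430924-66445721) to 6 baits 133 to 152 kb away just past its other end (chr2:66577533-66583487). No pair was kept here in naive cells, at day 1, in DE or in NE, while day 14 had 3 and H9 cells 1. The pair with the largest change, chr2:66430924-66432102 with chr2:66577533-66578089, scored 9.50, 4.60, 4.70 and 0. Chromosome 2, which also carries HOXD and PAX3, had the largest fall of any chromosome, with 22, 24, 18 and 8 pairs on the 4 days.

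Both loci named for HOX clusters among the 10 had higher counts on both early days than on either late day. These loci also take in baits outside the clusters. Pairs with a bait at the genes themselves did not separate in this way, with 4, 8, 2 and 6 at HOXC genes and 1, 2, 1 and 0 at HOXD genes. The HOXC locus on chromosome 12 (chr12:53743839-54592891, 43 baits) had 11, 10, 6 and 9 pairs at days 3, 5, 7 and 10, a fall of 3.0, which was 1.5 without day 7 and 4.5 without day 10. The HOXD locus on chromosome 2 (chr2:176122089-177148034, 14 baits) had 4, 3, 2 and 1 pairs, a fall of 2.0. HOX proteins pattern the body axis, and their clusters are under Polycomb control in pluripotent cells. At HOXD, 7 of 10 distinct pairs joined the cluster to baits 458 to 530 kb away (chr2:176645442-176654593), with 3, 2, 1 and 1 of them kept on the 4 days. The bait over HOXD3 and HOXD4 (chr2:176150516-176152390) scored 1.79, 7.10, 0 and 1.83 with chr2:176645442-176646700, and 9.81 in H9 cells. Contacts of HOXD baits with fragments outside the design also fell, with 39, 36, 20 and 17 on the 4 days, while those of HOXC baits numbered 121, 126, 118 and 107. In the HOXC locus the largest change of a pair was between chr12:53995817-53995952 and chr12:54196966-54197821, with scores of 9.94 at day 3 and 0 at days 5, 7 and 10.

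Counted by gene, the fall at HOX genes rested on day 5. Pairs with a bait at any of 39 HOX genes numbered 11, 21, 12 and 9 at days 3, 5, 7 and 10, a mean of 16.0 against 10.5, with day 7 above day 3. The fall of 5.5 pairs was 0.5 without day 5 and 10.5 without day 3. HOXA genes had 5, 7, 7 and 2 pairs, HOXB genes 1, 4, 2 and 1, HOXC genes 4, 8, 2 and 6, and HOXD genes 1, 2, 1 and 0. Among the 20 HOX genes with a pair on any of the 4 days, 10 fell and 5 rose, with a median fall of 0.25 pairs per gene. Over all 356 protein-coding genes with a pair, 188 fell (52.8%) and 139 rose, with a median fall of 0.5. HOXA3 had 3, 6, 3 and 2 pairs, many of them with baits in SKAP2 249 to 282 kb away. The strongest of these joined chr7:26857731-26858403, at the SKAP2 promoter window, to chr7:27138798-27139353 in HOXA3, with scores of 1.66, 10.1, 3.56 and 1.39 at days 3, 5, 7 and 10.

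Other lists of developmental genes held few of the lost pairs. Homeobox genes outside the HOX clusters had 30, 18, 27 and 20 pairs, a mean of 24.0 against 23.5, and of the 26 genes with a pair 11 fell and 12 rose. T-box, GATA and forkhead genes, which code for early lineage factors, had 8, 4, 3 and 5 pairs (6.0 against 4.0). PAX and SOX genes had 2, 3, 1 and 4, basic helix-loop-helix and zinc finger genes 3, 7, 6 and 4, and genes of signalling pathways 3, 7, 4 and 4. In each of these lists the early and late days overlapped. Genes of pluripotency factors, of Polycomb subunits and of housekeeping functions had no bait pair on any of the 4 days. Over all 19391 genes 1.84% had a pair, so lists of 31, 31 and 20 genes could hold few. Pairs with no protein-coding gene at either bait numbered 87, 62, 54 and 48, a mean of 74.5 against 51.0, and both early days lay above both late days, with a fall of 23.5 that was 11.0 without day 3 and 36.0 without day 5. Pairs with a gene at a bait numbered 114, 131, 103 and 92 (122.5 against 97.5). No listed gene changed by 3 pairs or more. CDX2 came closest, with 3 pairs at day 3, 2 at day 5, none at days 7 and 10, 4 at day 14 and 2 in H9 cells. The bait over its promoter (chr13:27967615-27969891) scored 6.14 at day 5 and 4.47 at day 7 with chr13:27920968-27923392 at PDX1, a ParaHox gene of pancreas and duodenum, against 0.810 at day 3 and 0.866 at day 10. GATA4, a cardiac and endoderm factor, had 1, 3, 0 and 0 pairs.

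The remaining loci of the leading 10 lost 2.0 or 2.5 pairs each. The locus of NR2F2, a nuclear receptor of veins and mesenchyme on chromosome 15, had 3, 4, 2 and 0 pairs, and its fall of 2.5 was 1.5 without day 10. Pairs with a bait at NR2F2 itself were kept on days 5 and 7 alone, in equal number, so they did not fall. The TRIM31 locus, in the part of chromosome 6 that holds HLA genes, had 1, 4, 0 and 0 pairs, and its fall of 2.5 was 1.0 without day 5 and 4.0 without day 3. The CROCC and NBPF1 locus on chromosome 1 had 4, 1, 0 and 0 pairs, and NBPF1 belongs to a family of near-identical copies, so contacts there are uncertain; its fall of 2.5 was 1.0 without day 3 and 4.0 without day 5. In these 3 loci the early counts all exceeded the late ones. The locus of IRX3 and IRX5, Iroquois homeobox genes on chromosome 16, had 4, 1, 0 and 1 pairs. The 4 of day 3 all spanned the 607 to 652 kb between baits near IRX3 and baits near IRX5. The fall was 0.5 without day 3 and 3.5 without day 5, and pairs with a bait at either gene itself did not fall. The locus of FOXA2, a pioneer factor of endoderm on chromosome 20, had 7, 2, 3 and 2 pairs. Without day 3 its difference was -0.5 pairs, that is, a rise, while without day 5 the fall was 4.5. Among these pairs, those with a bait at FOXA2 itself did not fall. The locus of the ligand genes DHH and WNT1 on chromosome 12 had 0, 6, 1 and 1 pairs, so that its fall came from day 5. Without day 5 the difference was -1.0, while without day 3 the fall was 5.0. Of the day 5 pairs only 1 had baits at these genes, joining WNT1 to DHH. The others joined baits at or near PRPH, C1QL4, TROAP and KCNH3. The pairs of days 7 and 10 each had a bait at DHH, so pairs at the 2 ligand genes did not fall. The GATA4 locus and the PAX3 locus (5, 7, 5 and 3 pairs) also fell by 2.0 and were left out of the 10 by the order of ties. In 8 of the 10 loci the direction held without any 1 of the 4 columns. The loci were chosen by their falls in these same columns, which favours that outcome, so the count is a description only.

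A few loci moved the other way. The largest rise, of 4.5 pairs, was at a locus on chromosome 1 with DMBX1, FOXD2 and TAL1 (chr1:46446573-47726258, 29 baits), which code for a homeobox, a forkhead and a basic helix-loop-helix factor. It had 3, 4, 9 and 7 pairs at days 3, 5, 7 and 10, and both late counts exceeded both early ones. The baits around DMBX1 (chr1:46446573-46528484) were joined to the rest only by 1 pair of 736 kb and 1 of 952 kb. Of the 4 days, both were kept at day 10 alone, so late pairs that built the locus also count toward its rise. Pairs inside the DMBX1 group numbered 2, 1, 3 and 2, with early and late days overlapping. Pairs of a group of 8 baits around FOXD2 (chr1:47424747-47453000) with baits 262 to 300 kb away (chr1:47708308-47726258) were absent from the kept contacts in naive cells and at days 1, 3 and 5, and numbered 4, 2 and 1 at days 7, 10 and 14, 3 in H9 cells, 4 in DE and 5 in NE. Of the 6 such pairs at days 7 and 10, 1 had its bait at FOXD2 itself. The locus of ISL1, a LIM homeobox gene of motor neurons and heart on chromosome 5, had 1, 2, 2 and 4 pairs and 9 at day 14. All joined a group of 9 baits at and beside the gene (chr5:51377322-51399820) to 3 baits 412 to 435 kb away. Pairs with a bait at ISL1 itself had the same mean on the earlier and later days. The locus of NR2E1, a nuclear receptor of neural stem cells on chromosome 6, had 1, 1, 2 and 2 pairs, 4 at day 14 and 9 in H9 cells. Its strongest pair (chr6:108116509-108116977 with chr6:108163975-108164662) scored 1.35, 1.79, 5.73 and 11.2 and had no bait at the gene. Pairs with a bait at NR2E1 itself did not rise. The locus of FOXP4 and TFEB had 3, 0, 1 and 5 pairs, and the CHIC2 locus had 3, 0, 3 and 3, with early and late days overlapping at both loci. The rise of 1.5 pairs at CHIC2 was 0.0 without day 5, that at FOXP4 and TFEB was 0.0 without day 5 and turned into a fall of 0.5 without day 10, and that of 1.5 at ISL1 was 0.5 without day 10. For 3 of these 5 loci the direction held without any 1 column, but they too were chosen by their change in the same columns.

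**Figure D5:**
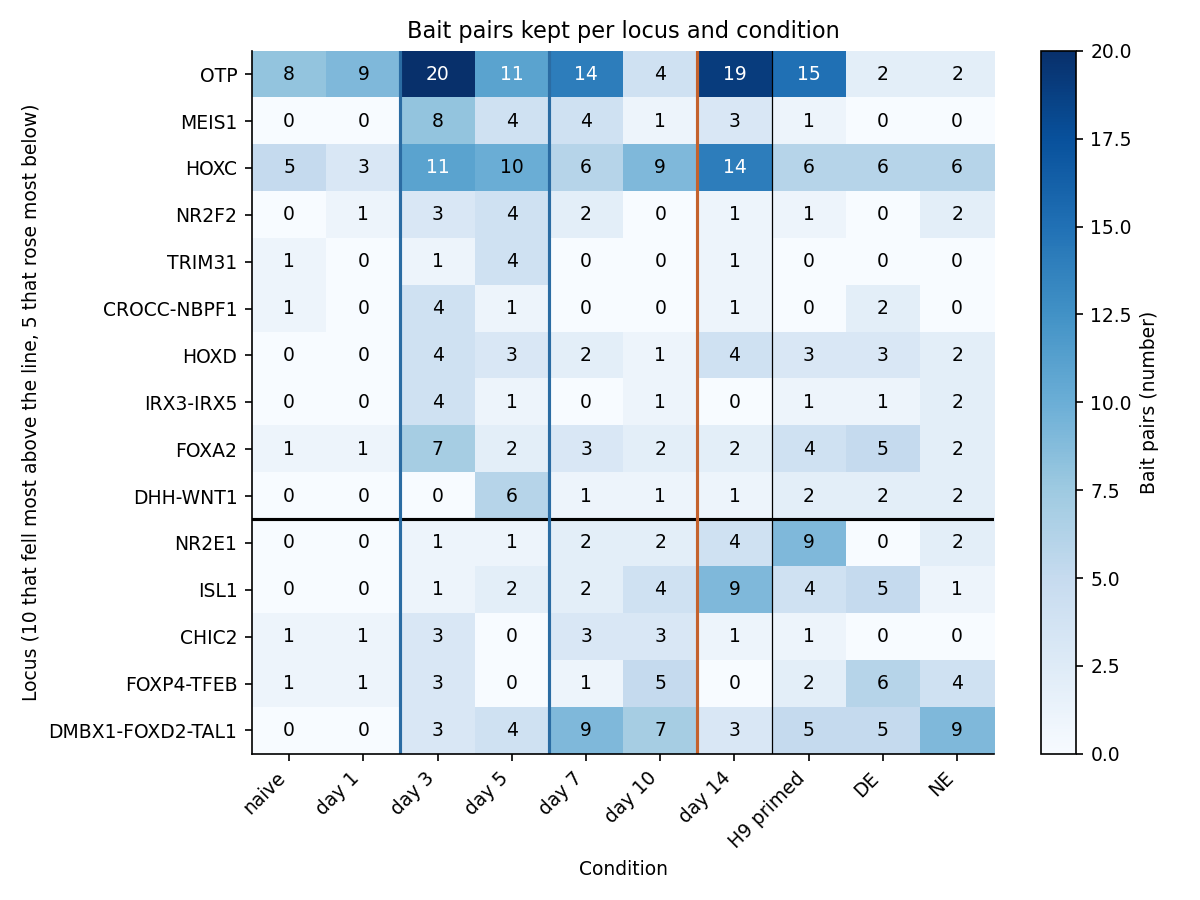
Kept bait pairs in each condition (columns) at the 10 loci with the largest fall (above the thick line) and the 5 with the largest rise (below it); numbers and colour give the count. Blue lines bound days 3 and 5, and the orange line ends days 7 and 10. OTP goes from 20 pairs at day 3 to 4 at day 10 and back to 19 at day 14.

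Between them, the 10 loci held 16 pairs in naive cells and 14, 62, 46, 32, 19 and 46 from day 1 to day 14 in order. Among the 46 pairs of day 14, OTP had 19, HOXC 14, HOXD 4, MEIS1 3, FOXA2 2 and the other 5 loci 0 or 1 each. These loci were chosen for low counts at days 7 and 10 against days 3 and 5, so these sums are a description and do not show a return at day 14. The 5 rising loci held 11, 7, 17 and 21 pairs on the 4 days and 17 at day 14.

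By distance, pairs of baits 100 to 250 kb apart lost the most in number (91, 85, 77 and 68 pairs on the 4 days, a fall of 15.5). Those 250 to 500 kb apart came next (61, 54, 44 and 43, a fall of 14.0). In both classes both early days lay above both late days. The same classes held the most bait pairs on each day, so the order by number follows the size of the classes. Pairs under 50 kb apart numbered 6, 11, 2 and 4, a larger loss relative to their early counts, with both early days above both late days. Pairs 50 to 100 kb apart numbered 16, 25, 20 and 5, and those over 1 Mb 6, 7, 5 and 5. All contacts of 100 to 250 kb, with or without a bait at the other end, numbered 8112, 7983, 7716 and 7777, and those of 250 to 500 kb 5944, 6015, 6256 and 6311, so all contacts were fewer in the first class and more numerous in the second at the later days, while bait pairs were fewer in both.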

How the data were processed

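PECHi-C libraries were made from 2 samples per condition with DpnII digestion, ligation in nuclei and SureSelect capture, per the labels' protocols. The authors deposited 1 CHiCAGO interaction score per contact and condition, pooling both libraries per the labels, and a signed distance in bp between the fragments; 0 score columns were unmatched. Every listed contact reached a score of 5 in some column, as checked in the matrix. Coordinates are on GRCh38 per the submitters' processing notes. Not given in the sources used here are the aligner, the version of CHiCAGO and the depth of each library.

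Contacts with both ends on the same chromosome were ranked by score in each column and the 18651 highest kept. A contact listed from each end counted as 1 bait pair. Pairs were joined into loci through shared baits or baits within 250 kb. The fall was the mean of days 3 and 5 minus the mean of days 7 and 10. A locus or pair was linked to the 19391 protein-coding RefSeq genes that overlap a bait widened by 1 kb. Named were the 10 loci with the largest fall and the 5 with the largest rise, ties going to the larger change in summed score and then to position, and up to 3 pairs in each, plus genes of 9 lists changing by 3 or more pairs; none did, and the genes with the largest changes were picked after their values were seen. The comparison, the lists and this rule were chosen with earlier results of these data known. No test across conditions was run. Pair counting and joining were tested on simulated data. Alternatives covered the number of contacts kept, the score threshold, the distance, the joining of loci and each column left out. The alternative without the chromosome 16 locus was added after the data had been seen. Software was Python 3.11.15 with networkx 3.6.1, matplotlib 3.10.9, scipy 1.17.1, numpy 2.4.6 and pandas 2.3.3. Promoter sequences are RefSeq's on GRCh38.p14; at 6 of 6 bait starts inside a promoter window the sequence read GATC.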

Additional observations from a re-analysis of the deposited data

How the results depend on the processing

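The fall in bait pairs kept its direction under all 15 alternatives and lay between 35.0 and 70.0 pairs in 12 of them, against 48.5. It was 73.0 pairs when every contact at 5 or more was taken, 19.0 when 9325 contacts were kept per column (96.0 against 77.0) and 2.5 at a score of 10 or more (8.0 against 5.5), where few pairs are left. Without 1 of the 4 columns it lay between 40.0 and 57.0. With 37302 contacts per column it was 50.5, but scores under 5 then enter, and those are listed only for contacts that reach 5 in another column. The difference in the share of bait-to-bait contacts kept its direction in 13 of 14 alternatives (0.122 to 0.298 percentage points, against 0.257) and was -0.00141 at a score of 10 or more. The share of the falls in the 10 leading loci was 24.3% to 32.0% in 15 of 18 alternatives. It was 37.7% with 9325 contacts per column, 35.8% without day 5 (24.3% without day 10) and 100.0% at a score of 10 or more, where 8 loci fell. No paired analysis was possible because the matrix has 1 column per condition, which pools both libraries. Depth was unknown, and its part in scores near 5 was not tested.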

Other observations

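The most persistent bait pairs were on chromosome 16. A bait at chr16:34595031-34595444 met 3 baits between 46389224 and 46391459, about 11.8 Mb away across the centromere, in all 10 conditions. The pair with chr16:46389224-46389869 scored 115, 133, 103 and 162 at days 3, 5, 7 and 10, 138 in naive cells and 300 in NE. These 3 were the only pairs kept on all 4 of the compared days. Without their locus the fall was 47.0 pairs. Some scores here were identical between conditions. The pair with chr16:46390065-46390538 scored 27.7633 in both H9 and DE, and 28.4565 both at day 5 and in NE. Whether reads map to a single place beside the centromere was not checked, so contacts there are uncertain.

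TTLL6, a tubulin glutamylase gene that lies in the HOXB locus of chromosome 17, had 0, 1, 5 and 1 pairs at days 3, 5, 7 and 10, the largest rise of any gene on those days. Its bait at chr17:48790020-48791101 met chr17:48677723-48678819, 112 kb away, with scores of 1.16, 5.90, 6.80 and 8.75, and 1.27 at day 14. MEIS2, the chromosome 15 relative of MEIS1, had 4, 1, 5 and 2 pairs and 8 at day 14, 7 in H9 cells, 7 in DE and 1 in NE, whereas MEIS1 itself had 5, 1, 3 and 1 and then 2, 0, 0 and 0. DE cells had 192 kept pairs and NE cells 168, and at the OTP locus each had 2.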
